A study of Mus musculus with 12 samples.

Results

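The 10 genes described here are S100a8 and S100a9, which encode the subunits of calprotectin, the stefin A genes Stfa1, Stfa2, Stfa3, Stfa2l1 and BC100530, and the neutrophil-linked genes Mmp9, Lcn2 and Csf3r. They are the rows of the count table whose Ensembl identifiers map to these symbols, 10 of 52636 genes in all, and all 10 passed the filter on low counts. They were chosen with results of these libraries already known, so their levels and differences are given as a description, with no p-value for any of them. The libraries are RNA-seq of dorsal skin from 4 groups of 3 C57BL/6 mice, aged 3 months and collected on day 14. WT mice were flox carriers without Cre and had intact Cdc42, and KO mice lacked Cdc42 in cells with an active keratin 5 promoter, which covers basal keratinocytes and their descendants and leaves blood-derived and dermal cells with the gene. Both of these groups received the vehicle, normal saline with the thickener HPMC, on the shaved back. The mice labelled WT+ZnO NPs and KO+ZnO NPs carry the same 2 genotype labels and received zinc oxide nanoparticles in that vehicle.

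Total counts lay between 21076320 and 28867802 per library, and levels are CPM, counts scaled to the library total after TMM factors had corrected it for a few very abundant genes. Cdc42 went against one label. It stood between 606 and 628 CPM in the WT libraries, between 415 and 464 CPM in KO, between 311 and 350 CPM in the WT+ZnO NPs-labelled libraries and between 314 and 453 CPM in those with the KO+ZnO NPs label, so the groups given particles are named by their labels throughout. Transcripts of 4 Y-linked genes were found at 192 to 236 CPM in the 3 WT+ZnO NPs-labelled libraries and at 242 and 237 CPM in replicate 1 of KO and of KO+ZnO NPs. The study's methods name female KO mice, which these transcripts in the KO and KO+ZnO NPs libraries go against. No Y-linked transcript was counted in the WT libraries, so between these and the WT+ZnO NPs-labelled libraries the sex of the mice and the particles cannot be told apart. Hair follicle keratins of the growth phase also split the libraries: 4 genes summed to 0.246 to 1.26 CPM in WT and 2.77 CPM in KO replicate 2, and to between 151 and 7150 CPM in the other 8 libraries. The labelled tissue had its keratinocyte genes, and muscle, fat and dermal markers were present in every library. Their sums differed between groups: 6 keratinocyte genes summed to 7617 to 11639 CPM in WT, 13920 to 25868 in KO, 5780 to 9931 in WT+ZnO NPs and 10806 to 17506 in KO+ZnO NPs, and 5 dermal fibroblast genes to 5339 to 11975, 21015 to 34876, 7416 to 32416 and 15078 to 20216 CPM. In vehicle skin both sums were higher in KO with no overlap, as were Mmp9 and 4 of the 5 stefins, and their part in those differences was not tested. With the particle label 5 skeletal muscle genes ran the other way from the members. They summed to 959 to 3392 CPM in KO and 2178 to 11841 in KO+ZnO NPs. There 5 of 5 had a log2 fold change above 0, with 1 called by edgeR, 5 at an unadjusted p under 0.05 and 5 called by DESeq2. In WT the muscle genes summed to 4001 to 5571 and in WT+ZnO NPs to 3707 to 17887 (5 of 5 above 0, 0 called by edgeR, 0 at an unadjusted p under 0.05 and 0 by DESeq2). Their part in the lower member levels was not tested.

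Calprotectin is a calcium- and zinc-binding dimer of S100A8 and S100A9, the most abundant proteins of the neutrophil cytosol, and keratinocytes of wounded or inflamed skin make it too. It acts outside the cell through TLR4 and other receptors and starves microbes of zinc and manganese. Stefins are small intracellular inhibitors of cysteine cathepsins, and the mouse stefin A genes form a tandem cluster of recent duplicates that neutrophils and keratinocytes transcribe. MMP9 is a gelatinase stored in neutrophil granules and secreted by migrating keratinocytes, lipocalin 2 binds bacterial iron siderophores, and CSF3R is the receptor for G-CSF, the growth factor of the neutrophil lineage.

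S100a8 (chr3:90668978-90670035, plus strand, GRCm38) and S100a9 (chr3:90692632-90695721, minus strand) lie beside each other. The stefins lie on chromosome 16, with Stfa2l1 at chr16:36156811-36161953 and Stfa1 at chr16:36276951-36285373 on the plus strand, and BC100530 at chr16:36359382-36367748, Stfa2 at chr16:36403992-36408457 and Stfa3 at chr16:36450537-36455392 on the minus strand. Mmp9 is at chr2:164940780-164955850 and Csf3r at chr4:126024550-126044440, both on the plus strand, and Lcn2 is at chr2:32384633-32388252 on the minus strand. All are protein-coding, and BC100530 overlaps the antisense gene Gm15845, whose reads cannot be told apart from it where counting ignored strand.

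Some of the stefins are so alike that a read can fit more than 1 of them, which limits their counts. The coding sequences below, read from GENCODE M21 transcripts, are the 120 bases that align to coding bases 31 to 150 of Stfa3, with capitals where a base differs from Stfa3. They are shown to let the near-identical pairs be seen, and they include the cluster members BC117090 and Gm5483.
Stfa3: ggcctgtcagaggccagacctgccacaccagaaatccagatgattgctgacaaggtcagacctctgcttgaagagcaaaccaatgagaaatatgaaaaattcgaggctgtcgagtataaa
Stfa2: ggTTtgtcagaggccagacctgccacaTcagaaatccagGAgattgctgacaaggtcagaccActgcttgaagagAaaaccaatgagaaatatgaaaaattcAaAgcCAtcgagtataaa
Stfa2l1: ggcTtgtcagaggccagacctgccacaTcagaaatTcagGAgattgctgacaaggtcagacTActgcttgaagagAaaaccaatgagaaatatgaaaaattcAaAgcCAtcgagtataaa
Stfa1: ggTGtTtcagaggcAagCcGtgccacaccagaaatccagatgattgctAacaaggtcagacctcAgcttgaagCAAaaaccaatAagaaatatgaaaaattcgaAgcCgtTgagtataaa
BC100530: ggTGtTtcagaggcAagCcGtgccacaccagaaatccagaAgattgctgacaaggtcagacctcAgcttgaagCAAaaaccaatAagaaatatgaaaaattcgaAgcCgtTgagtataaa
BC117090: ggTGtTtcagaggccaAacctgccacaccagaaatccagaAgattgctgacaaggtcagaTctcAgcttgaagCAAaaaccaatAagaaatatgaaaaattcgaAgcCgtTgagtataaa
Gm5483: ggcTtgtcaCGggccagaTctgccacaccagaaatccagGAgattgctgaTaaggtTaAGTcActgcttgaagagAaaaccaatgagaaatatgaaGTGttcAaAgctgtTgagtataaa
In this stretch Stfa1 and BC100530 differed at 2 of 120 bases, Stfa2 and Stfa2l1 at 3, and BC100530 and BC117090 at 5, while Stfa3 differed from the other members at 11 to 15. Over the coding bases that align, Stfa1 and BC100530 shared 288 of 294 bases, 100 of them in a row. The coding sequence of Stfa1 has 387 bases, so part of it has no counterpart in BC100530. Stfa2 and Stfa2l1 shared 301 of 312, with 97 in a row. Stfa3 was 81.1% to 82.7% identical to the other 4 stefin members. Of the 50-base stretches in each gene's exons, 36.2% of those of BC100530 occur in another gene, 24.6% of those of Stfa2l1, 22.5% of those of Stfa1 and 15.9% of those of Stfa2. None of the 363 stretches of Stfa3 do, nor do any of S100a8, S100a9, Mmp9 or Lcn2, and for Csf3r the share was 10.7%. Of the 100-base stretches, 15.6% of those of BC100530 and 5.07% of those of Stfa1 occur in another gene. For Stfa2, Stfa2l1 and Stfa3 that share was 0%. The study's methods give reads longer than 100 bases. In this search for exact matches among annotated transcripts, Stfa3 thus shared no stretch with another gene. Matches with mismatches and unannotated copies were not searched. Counts of the other stefins can miss reads that were dropped or hold reads of a relative.

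The stretch before each gene's start was searched for 4 motifs on both strands in RefSeq promoters of GRCm38.p6, from 250 bases before to 50 after the start, which were given for 8 of the 10 members. TTNNGNAA, a core of C/EBP sites, was found in 6 of these 8, and it occurs in 40.7% of all 32851 promoters. The 250 bases before the start of the calprotectin genes and of the near-identical stefins Stfa2 and Stfa2l1, whose levels differed between groups, are printed with that motif in capitals.
S100a8: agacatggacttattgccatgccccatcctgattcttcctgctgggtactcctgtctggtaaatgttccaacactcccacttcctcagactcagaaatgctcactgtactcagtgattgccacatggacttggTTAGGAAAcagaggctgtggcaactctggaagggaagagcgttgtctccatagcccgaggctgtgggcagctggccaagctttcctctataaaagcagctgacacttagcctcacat
S100a9: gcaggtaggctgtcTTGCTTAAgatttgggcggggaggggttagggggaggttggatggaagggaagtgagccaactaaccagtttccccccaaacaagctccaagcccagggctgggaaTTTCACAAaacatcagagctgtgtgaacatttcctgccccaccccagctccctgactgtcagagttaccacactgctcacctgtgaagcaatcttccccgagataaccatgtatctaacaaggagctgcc
Stfa2: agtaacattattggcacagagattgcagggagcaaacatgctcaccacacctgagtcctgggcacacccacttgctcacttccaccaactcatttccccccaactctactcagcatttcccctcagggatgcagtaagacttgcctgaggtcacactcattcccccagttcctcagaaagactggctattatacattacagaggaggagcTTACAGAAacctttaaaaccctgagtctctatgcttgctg
Stfa2l1: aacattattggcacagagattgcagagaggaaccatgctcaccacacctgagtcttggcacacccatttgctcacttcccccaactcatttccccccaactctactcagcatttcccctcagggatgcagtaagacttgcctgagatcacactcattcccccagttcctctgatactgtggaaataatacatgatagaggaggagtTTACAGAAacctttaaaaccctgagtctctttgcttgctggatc
The sequences are those of chr3:90668821-90669070 on the plus strand, chr3:90695722-90695971 on the minus strand, chr16:36408364-36408613 on the minus strand and chr16:36156561-36156810 on the plus strand. The motif began 117 bases before the start of S100a8, 236 and 130 before that of S100a9, 40 before that of Stfa2 and 44 before that of Stfa2l1. In Stfa1 and Lcn2, the other promoters that hold it, it began 109 and 216 bases before the start. The AP-1 motif TGANTCA (7.81% of all promoters) was found in Stfa3, the NF-kB motif (8.46%) in Csf3r and the STAT motif TTCNNNGAA (8.30%) in 0 of the 8. A match of letters is a description of the sequence and not a bound site.

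In vehicle skin the members split by gene. Mmp9 and Stfa3 stood far higher in KO than in WT, the other stefins except Stfa2l1 stood higher by less, Lcn2 and Csf3r lay lower, and calprotectin overlapped. In the WT+ZnO NPs-labelled libraries every member had a mean below that of WT. In the KO+ZnO NPs-labelled libraries calprotectin, Stfa2, Stfa2l1, Mmp9 and Csf3r lay below KO, while Stfa1, Stfa3 and BC100530 overlapped with it. Of the 10 members, 2 were called higher in KO than in WT and 0 lower, where a call is an adjusted p under 0.05 in edgeR's quasi-likelihood test over 18822 genes, and where 4.61% of all genes were called higher and 3.58% lower. Between the WT+ZnO NPs-labelled libraries and WT, 7 members were called lower and 0 higher, beside 22.1% and 20.8% of all genes. Between those with the KO+ZnO NPs label and KO, 2 were called lower and 0 higher, beside 8.09% and 6.57%. Between the groups labelled KO+ZnO NPs and WT+ZnO NPs, 4 were called higher and 0 lower, beside 2.13% and 1.16%. For the interaction of genotype label and particles, no member was called (3 had an unadjusted p under 0.05 and 1 was called by DESeq2), beside 5.08% of all genes called higher and 3.59% lower. Since the members were selected on these comparisons, nothing is read from these counts.

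The median log2 fold change of the 10 members was 0.94 for KO against WT, -3.54 for the WT+ZnO NPs-labelled libraries against WT, -2.06 for those with the KO+ZnO NPs label against KO and 1.91 between the groups given particles. Over all genes tested these medians were 0.01, 0.06, 0.01 and 0.04. Counted by libraries that did not overlap, 5 members lay higher in KO than in WT (18.6% of all genes) and 2 lower (19.9%). In the WT+ZnO NPs-labelled libraries 9 members lay below every WT library (29.3% of all genes) and 0 above (30.1%), and in those with the KO+ZnO NPs label 6 lay below every KO library (17.7%) and 0 above (17.0%). Between the groups given particles 4 lay higher with the KO label (13.0% of all genes) and 0 lower (10.8%). In these bulk libraries, fewer cells of a type and less RNA per cell cannot be told apart.

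**Figure D1:**
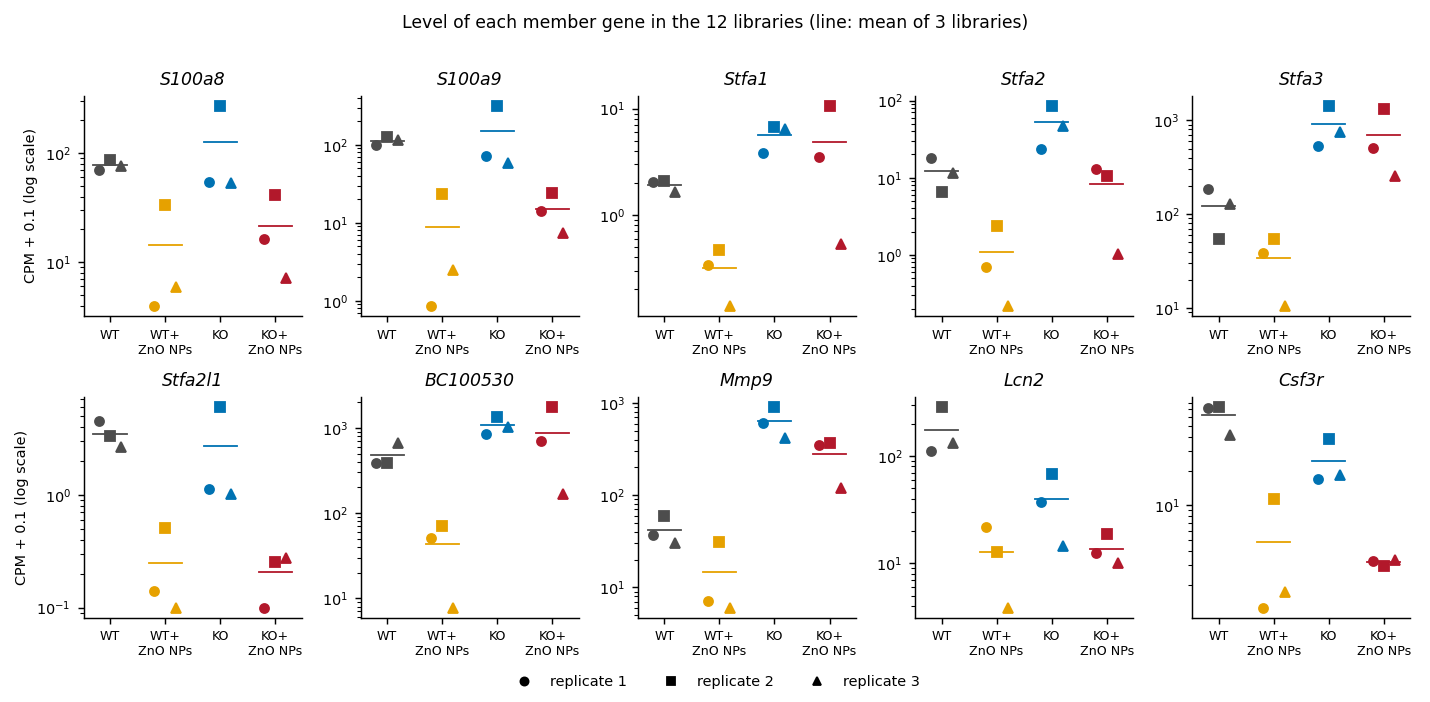
Level of each of the 10 member genes (CPM + 0.1, log scale) in the 12 libraries by group, with a symbol for each replicate number and a line at the mean of the 3 libraries of a group. Stfa3 and Mmp9 sit highest in the KO and KO+ZnO NPs libraries, and KO replicate 2 is the highest KO library for every member.

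**Figure D2:**
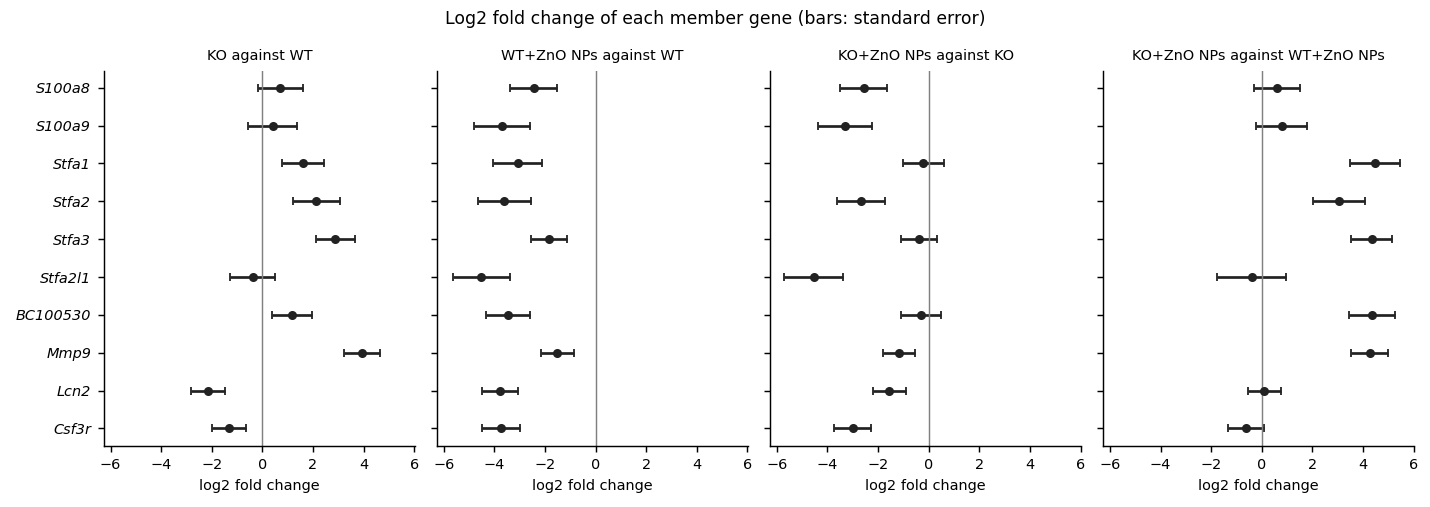
Log2 fold change of each member gene in 4 comparisons, with bars of 1 standard error of the edgeR fit over all 12 libraries. All 10 points lie left of 0 for the WT+ZnO NPs-labelled libraries against WT, and Stfa1, Stfa3, BC100530 and Mmp9 lie over 4 to the right between the groups given particles.

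S100a8 was at 70.5, 85.9 and 75.5 CPM in WT and at 53.8, 273 and 53.1 CPM in KO. In the WT+ZnO NPs-labelled libraries it was at 3.88, 33.2 and 5.81 CPM, and in those with the KO+ZnO NPs label at 16.4, 40.9 and 7.01 CPM. The WT libraries lay close together, KO replicate 2 stood far above the other KO libraries, and both groups given particles lay below the lowest library of their vehicle group. S100a9 followed it, at 98.6, 126 and 117 CPM in WT, 71.8, 319 and 58.5 CPM in KO, 0.76, 23.4 and 2.37 CPM in the WT+ZnO NPs-labelled libraries and 14.2, 24.0 and 7.23 CPM in those with the KO+ZnO NPs label. In both genes replicate 2 was the highest library of every group.

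By mean level the groups ran from KO (127 ± 127 CPM for S100a8, SD, n = 3) through WT (77.3 ± 7.85 CPM) and KO+ZnO NPs (21.4 ± 17.5 CPM) to WT+ZnO NPs (14.3 ± 16.4 CPM), with overlap between the first 2 and between the last 2. The log2 fold change of S100a8 was 0.71 (SE 0.88) for KO against WT, -2.44 (SE 0.93) for the WT+ZnO NPs-labelled libraries against WT and -2.57 (SE 0.93) for those with the KO+ZnO NPs label against KO. For S100a9 these were 0.40 (SE 0.98), -3.69 (SE 1.10) and -3.31 (SE 1.07). Without KO replicate 2 the last value was -1.31 for S100a8 and -2.09 for S100a9, and without KO+ZnO NPs replicate 2 it was -3.41 for S100a8. The difference between the genotypes in vehicle skin rested on 1 library: without KO replicate 2 it turned to -0.52 for S100a8 and to -0.79 for S100a9. Without replicate 2 of WT+ZnO NPs, the difference of that group from WT was -4.00 for S100a8 and -6.18 for S100a9. A fit that took the Y-linked level into account gave -1.41 and -2.98. Its Y-linked slope comes almost wholly from replicate 1 of KO and of KO+ZnO NPs against the other libraries of those groups. For WT+ZnO NPs against WT it therefore cannot separate the sex of the mice from the particles. For Stfa1, Stfa3 and Stfa2l1 that fit gave -2.35, -1.06 and -2.56.

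The balance of the subunits differed as well. S100a9 held 58.3%, 59.4% and 60.7% of the summed S100a8 and S100a9 counts in the WT libraries and 57.1%, 53.9% and 52.4% in KO. It held 16.4% (95% Clopper-Pearson interval 10.2% to 24.4%, of 116 counts), 41.3% and 29.0% in the WT+ZnO NPs-labelled libraries, and 46.4%, 37.0% and 50.8% in those with the KO+ZnO NPs label. All 6 vehicle libraries had more S100a9 than S100a8, and 5 of the 6 libraries labelled with particles had less. The exception was KO+ZnO NPs replicate 3, whose interval of 45.2% to 56.3% reached past that of KO replicate 3 (50.5% to 54.4%). These intervals cover counting error only. The pair summed to 2535 to 14752 counts in the vehicle libraries and to 116 to 1288 in those labelled with particles, and the part of the lower level in the shift of the share was not tested.

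**Figure D3:**
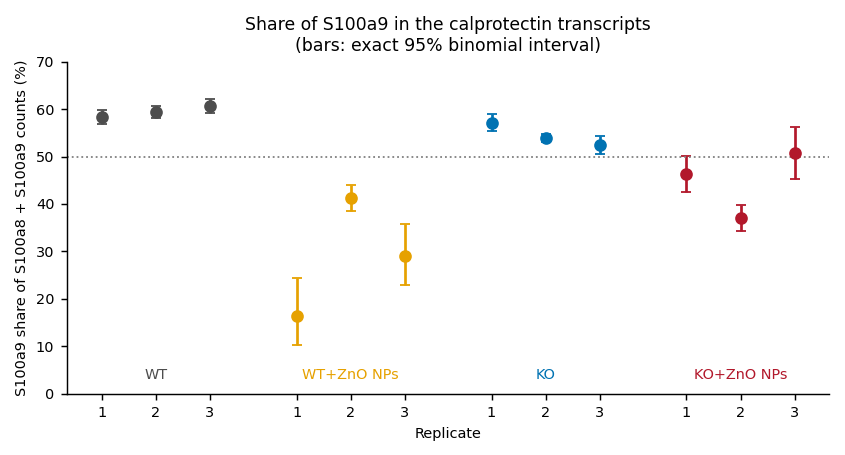
Share of S100a9 in the summed counts of S100a8 and S100a9 (percent) for each replicate of the 4 groups, with exact 95% binomial intervals and a dotted line at equal counts. The WT and KO libraries lie between 52.4% and 60.7%, and the WT+ZnO NPs-labelled libraries between 16.4% and 41.3%.

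Stfa3, the stefin that shares no 50-base stretch with another gene, split by genotype in vehicle skin and by genotype label between the groups given particles. It was at 186, 54.3 and 128 CPM in WT and at 531, 1436 and 749 CPM in KO, with no overlap. In the WT+ZnO NPs-labelled libraries it was at 38.0, 54.1 and 10.4 CPM, of which the highest all but met the lowest WT library. In those with the KO+ZnO NPs label it was at 511, 1313 and 254 CPM, overlapping with KO and above every library of the WT label. Its log2 fold change was 2.88 (SE 0.76, 7.38-fold) for KO against WT, -1.84 (SE 0.73) for the WT+ZnO NPs-labelled libraries against WT, -0.39 (SE 0.71) for those with the KO+ZnO NPs label against KO and 4.34 (SE 0.81) between the groups given particles. Leaving out KO+ZnO NPs replicate 2 brought the last value to 3.47 and the value against KO to -1.22.

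BC100530 was at 388, 391 and 658 CPM in WT, 842, 1361 and 1013 CPM in KO, 50.7, 71.0 and 7.67 CPM in the WT+ZnO NPs-labelled libraries and 695, 1747 and 170 CPM in those with the KO+ZnO NPs label. KO lay above WT by a log2 fold change of 1.16 (SE 0.80), less than for Stfa3, and the WT+ZnO NPs-labelled libraries lay below WT by -3.47 (SE 0.87), more than for Stfa3. In the KO+ZnO NPs-labelled libraries replicates 2 and 3 lay far apart, and the log2 fold change against KO was -0.30 (SE 0.79), or -1.29 without replicate 2. Between the groups given particles it was 4.34 (SE 0.91), and 3.32 without KO+ZnO NPs replicate 2. Stfa1, whose reads can be lost to BC100530, was low throughout, at 1.53 to 1.97 CPM in WT, 3.70 to 6.59 CPM in KO, 0.0396 to 0.366 CPM in the WT+ZnO NPs-labelled libraries and 0.436 to 10.6 CPM in those with the KO+ZnO NPs label. Its differences ran as those of BC100530 did, with a log2 fold change of 1.61 (SE 0.83) for KO against WT, -3.07 (SE 0.97) for WT+ZnO NPs against WT, -0.21 (SE 0.80) for KO+ZnO NPs against KO and 4.47 (SE 1.00) between the groups given particles, the last 3.14 without KO+ZnO NPs replicate 2. Without that library the value against KO was -1.50.

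Stfa2 and Stfa2l1 are near copies but were not at one level or in one pattern. Stfa2 was at 17.96, 6.53 and 11.4 CPM in WT and at 23.2, 85.9 and 46.8 CPM in KO, all above WT. It was at 0.60, 2.28 and 0.119 CPM in the WT+ZnO NPs-labelled libraries and at 13.04, 10.4 and 0.915 CPM in those with the KO+ZnO NPs label. Unlike Stfa1, Stfa3 and BC100530, it lay below every KO library in the latter group, by a log2 fold change of -2.68 (SE 0.95), or -2.09 without KO replicate 2. The counts of Stfa2l1 were 105, 92 and 60 in WT, 24, 146 and 21 in KO, 1, 9 and 0 in the WT+ZnO NPs-labelled libraries and 0, 3 and 4 in those with the KO+ZnO NPs label. KO replicate 2 was alone above WT, and the log2 fold change of KO against WT moved from -0.38 (SE 0.89) to -1.79 without it. Summed over 3 libraries, the share of Stfa2l1 in all counts with the WT+ZnO NPs label was 0.0441 times that in WT (95% counting interval 0.0209 to 0.0823, 10 against 257 counts). With the KO+ZnO NPs label it was 0.0385 times that in KO (0.0153 to 0.0809, 7 against 191 counts). Between the groups given particles the ratio of 0.692 had an interval of 0.224 to 2.01. Each of these intervals covers counting error only and not the spread between mice. Of the 10 counts 9 came from WT+ZnO NPs replicate 2. Without that library the fitted log2 fold change between the groups given particles turned from -0.40 to 2.16. It was 0.19 without KO+ZnO NPs replicate 1, -1.0 without WT+ZnO NPs replicate 3 and -1.97 with the Y-linked covariate. The log2 fold changes from WT to WT+ZnO NPs were -3.6 (SE 1.04) for Stfa2 and -4.51 (SE 1.13) for Stfa2l1, and they were -5.04 and -7.08 without WT+ZnO NPs replicate 2. For Stfa2l1 the change from KO to KO+ZnO NPs was -4.54 (SE 1.17), or -3.11 without KO replicate 2.

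Per kilobase of exon, which allows genes to be set beside each other, Stfa3 and BC100530 together held nearly the whole summed level of the 5 stefins in every library. BC100530 held 49.5%, 76.0% and 70.8% in WT, where Stfa3 held 45.4%, 20.2% and 26.4%. In the other 9 libraries Stfa3 was the larger, with 53.4% to 73.9%, and BC100530 held 25.7% to 44.2%. Stfa2 held 0.232% to 3.84% over the 12 libraries, Stfa2l1 up to 1.18% and Stfa1 up to 0.425%. The summed level was 651 to 1176 CPM per kb in WT, 2412 to 5412 in KO, 35.4 to 227 in the WT+ZnO NPs-labelled libraries and 835 to 5436 in those with the KO+ZnO NPs label. The 3 WT libraries thus had a smaller share of Stfa3 than any of the other 9, with no overlap.

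**Figure D4:**
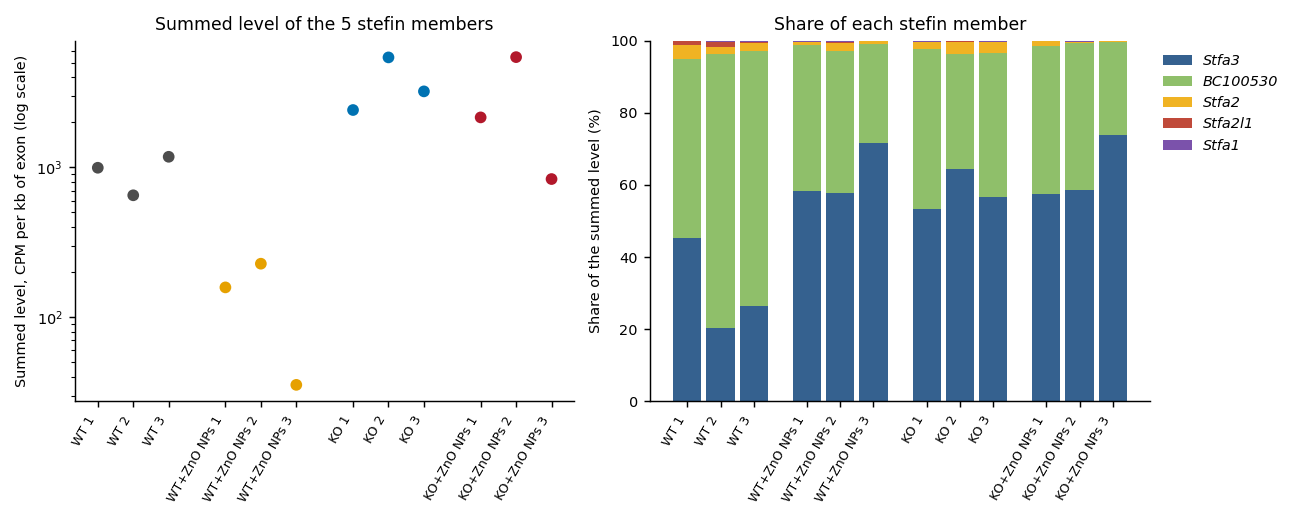
Left, summed level of the 5 stefin members in each library (CPM per kb of exon, log scale), and right, the share of each member in that sum (percent). BC100530 holds the larger share in the 3 WT libraries and Stfa3 in the other 9.

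Mmp9 was the member with the largest fold between the genotypes in vehicle skin. It was at 36.5, 59.9 and 29.9 CPM in WT and at 614, 899 and 415 CPM in KO, with no overlap. The WT+ZnO NPs-labelled libraries held 7.04, 31.1 and 5.93 CPM, of which replicate 2 overlapped with WT, and those with the KO+ZnO NPs label held 353, 372 and 120 CPM. The log2 fold change was 3.93 (SE 0.70, 15.3-fold) for KO against WT, between 3.62 and 4.27 with any 1 library left out, and 4.26 (SE 0.72) between the groups given particles, or 5.44 without WT+ZnO NPs replicate 2. With particles it was -1.52 (SE 0.65) against WT, or -2.70 without WT+ZnO NPs replicate 2, and -1.19 (SE 0.63) against KO, and all KO+ZnO NPs libraries lay below the KO libraries. The difference between the gap of the particle groups and that of the vehicle groups, its interaction value, was 0.33 (SE 0.89), or 1.51 without WT+ZnO NPs replicate 2.

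Lcn2 ran against Mmp9 in vehicle skin, at 111, 284 and 132 CPM in WT and 36.8, 67.6 and 14.3 CPM in KO, with no overlap. It was at 21.6, 12.8 and 3.76 CPM in the WT+ZnO NPs-labelled libraries and at 12.3, 18.4 and 9.93 CPM in those with the KO+ZnO NPs label, which overlapped with each other and, for the latter, with KO. The log2 fold change was -2.15 (SE 0.66) for KO against WT, -3.79 (SE 0.71) for WT+ZnO NPs against WT, -1.55 (SE 0.66) for KO+ZnO NPs against KO and 0.09 (SE 0.65) between the groups given particles. Without WT+ZnO NPs replicate 1 the second of these was -4.42 and the last 0.72, and without KO replicate 2 the first was -2.77 and the third -0.90.

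Csf3r was at 71.6, 72.6 and 41.3 CPM in WT, 16.9, 38.5 and 18.4 CPM in KO, 1.16, 11.2 and 1.62 CPM in the WT+ZnO NPs-labelled libraries and 3.14, 2.82 and 3.18 CPM in those with the KO+ZnO NPs label. Every KO library lay below every WT library, and both groups given particles lay below their vehicle group. Its log2 fold change was -1.33 (SE 0.68) for KO against WT, -3.73 (SE 0.75) for WT+ZnO NPs against WT and -3.01 (SE 0.74) for KO+ZnO NPs against KO. Without WT+ZnO NPs replicate 2 the second value was -5.47.

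Over the 12 libraries the members fell into groups that moved together, as Pearson's r of log2(CPM + 1). S100a8 and S100a9 had an r of 0.98, Stfa3 and Mmp9 of 0.93, Stfa3 and BC100530 of 0.90, and Stfa2l1 and Csf3r of 0.93. Lcn2 went with Csf3r and Stfa2l1 (both 0.85) and hardly with Mmp9 (0.08) or Stfa3 (0.11). After each library was set relative to its group mean, S100a8 and S100a9 still had an r of 0.97 and Mmp9 had 0.86 with each of them, whereas Stfa3 and Mmp9 had 0.54 and Lcn2 and Csf3r 0.27. The points share their groups and libraries, KO replicate 2 among them, so these values describe the 12 libraries only.

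The mean of S100a8 and S100a9 was also set beside 12842 other genes that averaged 5 CPM or more. The 5 most like it were Itga5, the fibronectin receptor subunit (r = 0.968), Rnf24 (0.966), Sec61a1, part of the channel into the endoplasmic reticulum (0.965), Srgn, the proteoglycan of leukocyte granules (0.965), and Clec4e, a myeloid lectin receptor (0.961). Srgn had means of 93.4 CPM in WT, 95.4 CPM in KO, 17.6 CPM in WT+ZnO NPs and 34.9 CPM in KO+ZnO NPs. The 5 most like the summed stefins were their relative BC117090 (0.985), Rab18 (0.970), Abcc4, an efflux pump (0.966), Tprgl (0.964) and Evi5 (0.964). BC117090 shares 33.7% of its 50-base stretches with other genes, all with BC100530 or Stfa1, so some of its likeness can be shared reads.

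The other genes of these pathways were followed in 10 lists that hold no member, 133 genes in all, of which 121 passed the filter. KO against WT had 7 called higher and 8 lower (5.79% and 6.61%, beside 4.61% and 3.58% of all genes). The WT+ZnO NPs-labelled libraries against WT had 9 higher and 81 lower (7.44% and 66.9%, beside 20.8% and 22.1% of all genes), and those with the KO+ZnO NPs label against KO had 3 higher and 39 lower (2.48% and 32.2%, beside 6.57% and 8.09%). In KO+ZnO NPs against WT+ZnO NPs 4 were called higher and 0 lower, beside 2.13% and 1.16% of all genes, and for the interaction 15 higher and 3 lower, beside 5.08% and 3.59%. With 1 library left out the calls of KO+ZnO NPs against KO fell from 42 to 8 (without KO replicate 2), 25 (without KO replicate 3) and 25 (without KO+ZnO NPs replicate 2), and those of KO against WT from 15 to 6 (without WT replicate 2) and 8 (without KO replicate 3). The 4 calls between the groups given particles came to between 0 and 24 with any 1 of the 12 libraries left out, and the 18 of the interaction to 4 and 11 without WT replicate 2 and without WT replicate 1 or 3, to 5 without WT+ZnO NPs replicate 3, and to 6 and 7 without KO replicate 1 and 3. With the Y-linked covariate the 90 calls of WT+ZnO NPs against WT came to 57 and the 18 of the interaction to 2. That fit cannot separate sex from the particles in the libraries of the WT label.

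Of 21 neutrophil genes tested, 12 were called lower and 1 higher in the WT+ZnO NPs-labelled libraries than in WT, and 6 lower in those with the KO+ZnO NPs label than in KO. Of the 12 lower calls 3 were kept with the Y-linked covariate, 7 without WT+ZnO NPs replicate 1 and 6 without WT+ZnO NPs replicate 3, and of the 6 against KO 0 were kept without KO replicate 2 and 1 to 3 without KO replicate 3 or any 1 WT or KO+ZnO NPs library. Chil3, a chitinase-like protein of neutrophils and macrophages, was at 147 to 425 CPM in WT and at 0.16 to 1.51 CPM in WT+ZnO NPs (log2 fold change -8.45, SE 1.16, edgeR adjusted p = 0.000309). Cxcr1 and Cd177 were also called lower, but both calls were lost with the Y-linked covariate and without WT+ZnO NPs replicate 3, and that of Cxcr1 also without WT replicate 3 or WT+ZnO NPs replicate 1. Against KO the called genes with the largest falls were Fpr1, a formyl peptide receptor (-5.09, SE 1.24, adjusted p = 0.0245), Cd177 (-4.72, adjusted p = 0.0421) and Chil3 (-4.55, adjusted p = 0.0150). These 3 calls were lost without KO replicate 2, and those of Cd177 and Fpr1 also without any 1 KO+ZnO NPs library. In the alternatives the values lay between -5.56 and -3.03 for Fpr1, -5.5 and -2.55 for Cd177 and -5.05 and -2.98 for Chil3. Between KO and WT edgeR called 0 of the 21 in either direction, where 5 higher and 1 lower had an unadjusted p under 0.05 and DESeq2 called 3 higher. In KO+ZnO NPs against WT+ZnO NPs edgeR called 0, where 4 higher and 1 lower had such a p and DESeq2 called 1 higher and 1 lower.

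The 22 neutrophil genes summed to 225 to 543 CPM in WT, 109 to 495 CPM in KO, 24.6 to 60.2 CPM in WT+ZnO NPs and 31.7 to 44.2 CPM in KO+ZnO NPs, a sum of which Chil3 alone made 147 to 425 CPM in WT. Without Chil3, left out after its values were seen, the sum was 77.6 to 180 CPM in WT, 85.6 to 292 CPM in KO, 24.4 to 58.7 CPM in WT+ZnO NPs and 28.3 to 41.1 CPM in KO+ZnO NPs. On both sums WT and KO overlapped, and each group given particles lay below its vehicle group. The defining marker of mature neutrophils was near 0 everywhere. Ly6g had 2 to 8 counts in the WT libraries, 25 in KO replicate 2, at most 6 in the other KO libraries, and 0 in 4 of the 6 libraries labelled with particles. KO replicate 2, the highest KO library for every member, stood apart in several granule genes of neutrophil precursors: it held 1333 counts of Ngp, while the other 11 libraries held 0 to 91. It held 190 counts of Mpo, the myeloperoxidase gene, and 162 of Ctsg, cathepsin G, while each of the other KO libraries held 2 of Mpo and at most 44 of Ctsg. Prtn3, proteinase 3 of the same granules, did not go with them, at 256 counts there, 305 in KO replicate 1 and 449 in WT replicate 2. Mpo was also at 100, 56 and 147 counts in the WT+ZnO NPs-labelled libraries, against 1 to 3 in WT, the only neutrophil gene called higher there (log2 fold change 5.62, SE 1.60, adjusted p = 0.0165, lost without any 1 WT library and with the Y-linked covariate). The part of neutrophil number in the differences of the members was not tested.

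Of 17 genes shared by myeloid cells, all were called lower in WT+ZnO NPs than in WT, and 16 lower in KO+ZnO NPs than in KO. Of the 16 calls against KO 7 were kept without KO replicate 2 and 8 in the fit of the compared groups alone. They summed to 4224 to 5344 CPM in WT, 2140 to 4480 CPM in KO, 304 to 610 CPM in WT+ZnO NPs and 607 to 1194 CPM in KO+ZnO NPs, and no gene of the list was at 3 counts or fewer in any library. The largest fall against WT was that of Adgre1, the macrophage marker F4/80, from 252 to 359 CPM in WT to 6.08 to 13.9 CPM. Lyz2, lysozyme M and the most abundant of the list, was at 1412 to 2020 CPM in WT, 914 to 1675 CPM in KO, 108 to 245 CPM in WT+ZnO NPs and 221 to 497 CPM in KO+ZnO NPs. For KO against WT edgeR called 0 of 17, with 8 lower at an unadjusted p under 0.05 and 4 called lower by DESeq2. For the interaction 7 were called higher and 0 lower, which here is a smaller fall with the KO label. Between the groups given particles edgeR called 0, with 13 higher at an unadjusted p under 0.05 and 7 called by DESeq2.

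Of 19 attractants and cytokines tested, 10 were called lower in WT+ZnO NPs than in WT and 3 lower in KO+ZnO NPs than in KO, of which 0 or 1 were kept without KO replicate 2 or 3 or any 1 KO+ZnO NPs library. Of the 10 against WT 6 were kept with the Y-linked covariate. Cxcl5, a ligand of CXCR2, went from 2.01, 29.5 and 3.27 CPM in WT to 0, 0.183 and 0 CPM in WT+ZnO NPs (adjusted p = 0.00584), and Cxcl3 fell in both comparisons (-4.68, adjusted p = 0.00717, and -4.55, adjusted p = 0.0237). The calls of both genes against WT were lost with the Y-linked covariate, and that of Cxcl3 against KO without KO replicate 2 or KO+ZnO NPs replicate 3 and in the fit of the compared groups alone. Il1b, the inflammasome cytokine, fell against KO, from 16.2 to 19.8 CPM to 1.40 to 2.27 CPM (-3.20, SE 0.78, adjusted p = 0.0248), a call lost without KO replicate 2 or 3 or any 1 KO+ZnO NPs library. In KO skin Il23a, a subunit of the cytokine that sustains IL-17 cells, rose against WT, from at most 0.839 CPM to 1.91 to 3.05 CPM (2.57, adjusted p = 0.0403), and Ppbp, a platelet chemokine, fell (-3.39, adjusted p = 0.0253). Both calls were lost without any 1 KO library and without WT replicate 2 or 3, and that of Il23a also without WT+ZnO NPs replicate 1. Il1f9, the file's symbol for IL-36 gamma, was the 1 gene of the list called between the groups given particles (2.78, SE 0.66, adjusted p = 0.0490), and that call was lost without any library but KO+ZnO NPs replicate 3.

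Of 6 calprotectin receptor genes, 4 were called lower in WT+ZnO NPs than in WT, 2 lower in KO than in WT and 1 lower in KO+ZnO NPs than in KO. Tlr4 was at 62.8 to 83.2 CPM in WT, 27.4 to 37.5 CPM in KO, 3.60 to 8.82 CPM in WT+ZnO NPs and 9.54 to 13.4 CPM in KO+ZnO NPs, 4 ranges that did not overlap. Its log2 fold change was -3.65 (adjusted p = 3.64e-05) from WT to WT+ZnO NPs and -1.59 (adjusted p = 0.0114) from KO to KO+ZnO NPs, the latter call lost without KO replicate 2. For KO against WT it was -1.10 (adjusted p = 0.0472), a call lost in 9 of 18 alternatives, any 1 WT or KO library left out among them. Cd36, a fatty acid carrier of fat cells and macrophages that also binds S100A8/A9, fell by 1.2 in KO (adjusted p = 0.0163, lost without WT replicate 2 or KO replicate 1 or 2) and by 2.59 with the WT+ZnO NPs label (adjusted p = 5.08e-05). Fat cell markers moved with it: 5 adipocyte genes summed to 4501 to 6458 CPM in WT, 1552 to 3139 CPM in KO, 637 to 1379 CPM in WT+ZnO NPs and 1042 to 3795 CPM in KO+ZnO NPs, and their part in the values of Cd36 was not tested. Bsg, the basigin receptor, was at 298 to 437 CPM over all 12 libraries and was not called in any comparison.

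Of 11 other S100 genes tested, 5 were called higher and 5 lower in WT+ZnO NPs than in WT. With the Y-linked covariate 0 of the 5 higher and 4 of the 5 lower calls were kept, and 3 of the 5 higher were kept without WT replicate 2. S100a3, a protein of the hair cuticle, was at 0.595 to 0.772 CPM in WT and at 90.1 to 312 CPM in WT+ZnO NPs (8.32, adjusted p = 0.00605), and it was at 0.402 CPM in KO replicate 2, so it split the libraries as the hair keratins did. S100a6 and S100a10 were lower in KO (-1.18 and -1.30, adjusted p = 0.0158 and 0.00706) and in WT+ZnO NPs (-1.01 and -1.15, adjusted p = 0.00615 and 0.00188) than in WT. S100a10, the annexin A2 partner, rose in KO+ZnO NPs against KO (0.84, adjusted p = 0.0285). That call was lost without KO replicate 2 or 3 or KO+ZnO NPs replicate 2, and the KO call of S100a6 without WT replicate 2 or KO replicate 2 or 3.

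Of 8 other stefin and cystatin genes tested, 7 were called lower in WT+ZnO NPs than in WT, and 1 lower in KO+ZnO NPs than in KO. Of the 7 calls 3 were kept with the Y-linked covariate and 3 without WT+ZnO NPs replicate 3. Between KO and WT edgeR called 0 of 8, with 0 at an unadjusted p under 0.05 and 0 by DESeq2. BC117090 was at 17.7 to 26.8 CPM in WT, 41.1 to 71.7 CPM in KO, 0.870 to 6.21 CPM in WT+ZnO NPs and 13.2 to 151 CPM in KO+ZnO NPs, and it was called higher in KO+ZnO NPs than in WT+ZnO NPs (4.16, SE 0.87, adjusted p = 0.0377). That call was lost without any library but KO+ZnO NPs replicate 3. Gm5483 was at 10.2 CPM in KO replicate 2 and at 0 to 0.202 CPM in KO+ZnO NPs, and its call against KO (adjusted p = 0.0407) was lost in 9 of 18 alternatives, that replicate left out among them. Cst3, secreted cystatin C, fell from 664 to 804 CPM in WT to 297 to 414 CPM in WT+ZnO NPs (-1.09, adjusted p = 0.000982). The cathepsins that stefins inhibit fell too, with 6 of 7 called lower against WT and 5 of 7 against KO. Of these 5 calls 1 was kept without KO replicate 2, 3 without KO replicate 3 or KO+ZnO NPs replicate 2 or 3, and 0 in the fit of the compared groups alone. Ctsb was at 2763 to 3232 CPM in WT and 526 to 723 CPM in WT+ZnO NPs (-2.35, adjusted p = 6.75e-05), and Ctss, the cathepsin of antigen-presenting cells, fell by 3.91 (adjusted p = 0.000369) and, against KO, by 2.19 (adjusted p = 0.0217, lost without KO replicate 2 or 3 or KO+ZnO NPs replicate 3). For KO against WT edgeR called 0 of 7, with 1 higher and 1 lower at an unadjusted p under 0.05 and 1 called higher by DESeq2.

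Of 10 MMP9 inhibitors and relatives tested, 3 were called higher in KO than in WT and 0 lower. Mmp13, a collagenase, was at 2.81 to 3.99 CPM in WT and 134 to 321 CPM in KO (6.19, SE 0.76, adjusted p = 0.00151), and Mmp10, stromelysin 2 of migrating keratinocytes, at 0.210 to 0.316 CPM and 8.67 to 17.0 CPM (5.66, SE 0.93, adjusted p = 0.00657). Mmp14, the membrane protease that activates other MMPs, rose by 1.41 (adjusted p = 0.00448). Mmp13 was also higher with the KO label between the groups given particles, with 22.1 to 147 CPM in KO+ZnO NPs and 2.93 to 10.5 CPM in WT+ZnO NPs (3.73, adjusted p = 0.0307, lost in 9 of 18 alternatives, without any 1 WT library among them). Timp1, the secreted inhibitor that binds MMP9, had a log2 fold change of -0.22 (SE 0.47) for KO against WT and fell from 27.8 to 93.2 CPM in WT to 5.78 to 17.1 CPM in WT+ZnO NPs (-2.39, adjusted p = 0.00330). Mmp10 fell in KO+ZnO NPs against KO (-2.70, adjusted p = 0.0425), with Mmp3 (-1.60, adjusted p = 0.0355) and Plau, urokinase (-1.14, adjusted p = 0.0189), and all of these calls were lost without KO replicate 2.

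Of 6 lipocalin 2 receptor and iron genes tested, 1 was called higher and 2 lower in WT+ZnO NPs than in WT. Slc22a17, a receptor of lipocalin 2, rose from 9.93 to 13.6 CPM to 24.5 to 34.6 CPM (1.30, SE 0.17, adjusted p = 0.000223), and the ferritin light chain gene Ftl1 fell from 1049 to 1590 CPM to 221 to 315 CPM (-2.27, adjusted p = 0.000104). Ftl1 was lower in KO than in WT as well (-1.05, adjusted p = 0.0300), a call lost without WT replicate 1 or 2 or KO replicate 1 or 3. For KO+ZnO NPs against KO edgeR called 0 of 6, with 1 higher and 2 lower at an unadjusted p under 0.05 and 1 called lower by DESeq2. In KO+ZnO NPs against WT+ZnO NPs it called 0, with 2 higher and 2 lower at such a p and 0 by DESeq2.

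Of 16 keratinocyte stress and antimicrobial genes tested, 2 were called higher and 1 lower in KO than in WT. Krt17 rose from 325 to 517 CPM to 1059 to 2025 CPM (1.84, adjusted p = 0.00896), and Slpi, the leukocyte protease inhibitor, from 9.05 to 20.5 CPM to 35.8 to 137 CPM (2.62, adjusted p = 0.0338). The call of Slpi was lost without any 1 WT library and without KO replicate 2 or 3, and that of Krt17 without WT replicate 2. Defb6, a beta-defensin, fell from 230 to 546 CPM to 54.7 to 114 CPM (-2.33, adjusted p = 0.00526). In WT+ZnO NPs 11 were called lower, among them Sprr2d, a cornified envelope protein (-6.13, adjusted p = 0.00152), and 1 higher, Krt17 (2.04, adjusted p = 0.000735). In KO+ZnO NPs 3 were called lower than in KO, Sprr2d (-4.16, adjusted p = 0.0175), Sprr2h (-3.22, adjusted p = 0.0187) and Slpi (-2.79, adjusted p = 0.0208), all lost without KO replicate 2, and Defb6 was called higher, which also depended on that library. Between the groups given particles edgeR called 0 of 16, with 9 higher at an unadjusted p under 0.05 and 7 called higher by DESeq2.

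**Figure D5:**
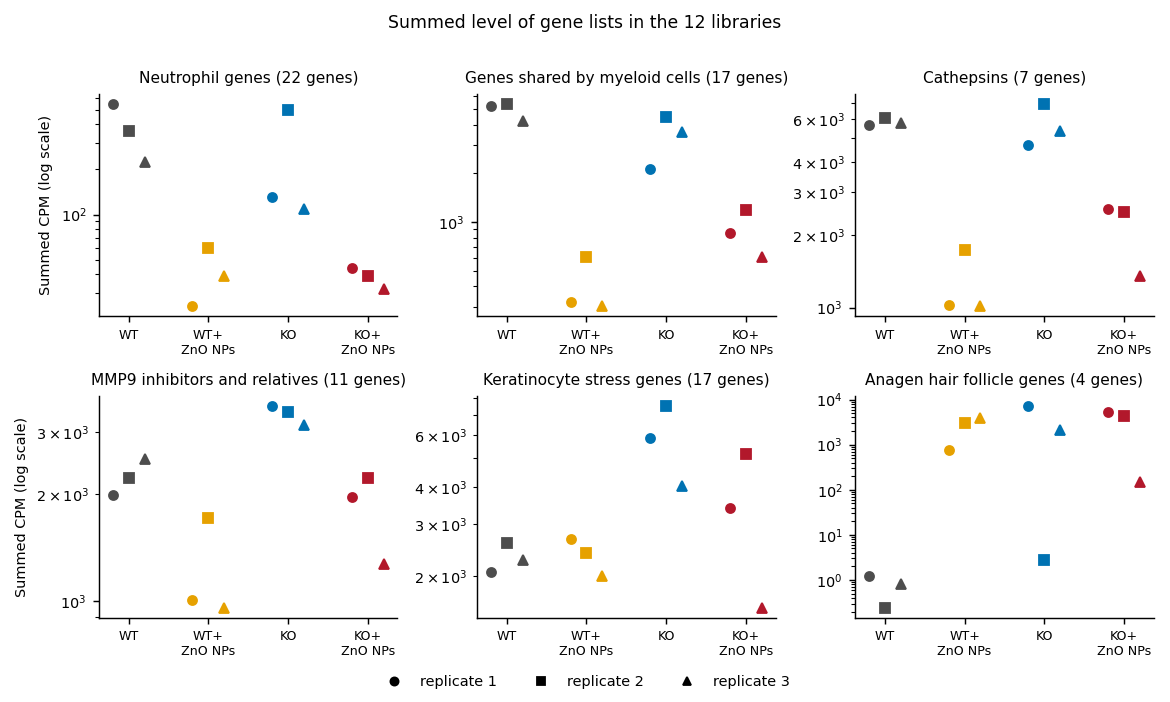
Summed level (CPM, log scale) of 6 gene lists in the 12 libraries by group, with a symbol for each replicate number. Myeloid genes and cathepsins lie lower in both groups labelled with particles than in their vehicle groups, so do neutrophil genes, of whose sum Chil3 makes 147 to 425 CPM in WT, and anagen hair follicle genes are near 0 in WT and KO replicate 2.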

How the data were processed

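RNA-seq was made from the skin of 12 mice. In the study's methods TRIzol extraction and poly-A selection preceded paired-end sequencing, STAR aligned the reads and HTSeq, which by default drops reads that fit more than 1 gene, counted them. The submitters' processing notes list HISAT2 2.0.5 and mm10 instead, and the aligner behind the table was not settled. Strand use and annotation are not given in the sources used here. The authors deposited unnormalized read counts for 52636 genes in 12 libraries, and 52489 genes were matched to GENCODE M21 (GRCm38).

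edgeR 4.0.16 in R 4.3.3 (quasi-likelihood test, TMM factors, its filter on low counts, 1 coefficient per group, all 12 libraries, Benjamini-Hochberg over 18822 genes) gave log2 fold changes, with SEs derived from its F statistics, and calls at an adjusted p under 0.05. The labels give separate replicates, and p-values measure the spread between them. No 2 libraries of a group were the same within sampling noise (chi-square per degree of freedom 37.4 to 162). The members, the gene lists and the tests were chosen with earlier results of these data known. Genes named are the members and, in each list, those called with the largest change (up to 3 in each direction and comparison) and the 3 most abundant, of which some are left out. Ly6g, Ngp, Ctsg, Prtn3 and Timp1 in KO against WT were named after their values were seen. Likeness is Pearson's r of log2(CPM + 1) over 12 libraries. Coding sequences were aligned with MAFFT. Alternatives were RLE factors, DESeq2 1.42.0, a fit of the compared groups alone, all genes unfiltered, the replicate number as a block, the Y-linked level as a covariate, and each library left out. The slope of the Y-linked covariate rests almost wholly on replicate 1 of KO and of KO+ZnO NPs. A call lost with it is a change of the fit and does not tell sex from particles.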

Additional observations from a re-analysis of the deposited data

Results flagged for a closer look

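For 18 genes of the pathway lists, of which the 13 with the largest values in their list are given, the change with particles differed between the genotype labels, as tested by the interaction term of the edgeR fit (adjusted p by Benjamini-Hochberg). A positive value is a smaller fall, or a rise, with the KO label. Marker lists of other skin parts moved in the same term. Of 4 anagen hair follicle genes 4 were called lower (median log2 fold change -11.33). They summed to 0.246 to 1.26 CPM in WT and 743 to 3993 CPM in WT+ZnO NPs. Of 5 adipocyte genes 1 was called higher, with 5 above 0 (median 2.52). The part of hair growth phase and of fat in the values below was not tested. The macrophage and myeloid genes Adgre1 (2.71, adjusted p = 0.0237), Tyrobp (2.23, adjusted p = 0.0253) and Fcer1g (2.11, adjusted p = 0.0232) had positive values. So did the calprotectin receptor genes Cd36 (2.15, adjusted p = 0.00874) and Tlr4 (2.06, adjusted p = 0.0198), the S100 genes S100a10 (1.99, adjusted p = 0.00714), S100a13 (1.37, adjusted p = 0.00946) and S100a6 (1.25, adjusted p = 0.0435), the ferritin gene Ftl1 (1.49, adjusted p = 0.0291) and the defensin gene Defb6 (3.30, adjusted p = 0.00714). Negative values were those of Mpo (-8.36, adjusted p = 0.0353), Krt17 (-1.94, adjusted p = 0.0275) and the lipocalin 2 receptor Slc22a17 (-0.93, adjusted p = 0.0362). That of Mpo lay between -9.38 and -3.55 in the alternatives. Of these calls, those of Cd36 and Defb6 were lost in 0 of the 17 alternatives, and those of S100a10 and S100a13 in 1, the Y-linked covariate. The call of Tlr4 was lost in 3, of Fcer1g in 4, of Adgre1 and Krt17 in 5 each, of Tyrobp in 6, of Ftl1 in 7, of Slc22a17 in 10, of Mpo in 11 and of S100a6 in 13, the Y-linked covariate among them for each. The Y-linked level differs between the vehicle and particle libraries of the WT label. The fit with the Y-linked covariate cannot separate it from the particles there, and its part in these values was not tested.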

How the results depend on the processing

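Counts of called pathway genes moved by more than 1.5 times in some alternatives. For KO against WT the 15 calls became 28 with DESeq2 and 26 in a fit of the compared groups alone, and 6 to 19 with 1 library left out. For WT+ZnO NPs against WT the 90 calls became 57 with the Y-linked covariate. For KO+ZnO NPs against KO the 42 calls became 16 with the compared groups alone and 8 to 48 with 1 library left out. For KO+ZnO NPs against WT+ZnO NPs the 4 calls became 2 with RLE factors, 38 with DESeq2, 0 with the compared groups alone and 0 with the Y-linked covariate, and 0 to 24 with 1 library left out. For the interaction the 18 calls became 33 with DESeq2, 2 with the Y-linked covariate and 4 to 20 with 1 library left out. The cause was not tested, except that fewer libraries entered the fits with a group or library left out. Replicate numbers did not pair the libraries (4 of 18 pairs had an r over 0.1, from -0.343 to 0.429); with the replicate block the 4 calls became 13, and the difference of S100a9 between KO and WT turned from 0.40 to -0.23 and that of S100a8 came from 0.71 to 0.09. The block brought WT+ZnO NPs against WT to -3.16 for S100a8, -4.70 for S100a9 and -5.11 for Stfa2l1, KO against WT to -1.02 for Stfa2l1, KO+ZnO NPs against WT+ZnO NPs to 1.51 for S100a9, and the interaction to 0.75 for S100a8, 0.94 for Stfa2l1, 1.74 for S100a9 and 1.34 for Csf3r.

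With 1 library left out, member values stayed within the spread of their replicates for 565 pairs of a member value and a library left out and moved by more for 35. The named calls of pathway genes were kept for 827 such pairs of a call and a library and lost for 265, kept in 55 and lost in 36 with the Y-linked covariate, kept in 55 and lost in 22 with the compared groups alone, kept in 84 and lost in 7 with the replicate block, and lost in 5 unfiltered and in 3 with RLE factors. No call changed direction in these alternatives. Depth limits Stfa2l1, at 0 to 9 counts in the particle libraries, and Ly6g.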
